A study of Mus musculus with 8 samples.

Results

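The genes described here lie on mouse chromosome 7 between 16 and 18 Mb of the mm9 build, an interval that holds Napa, Slc1a5 and Prkd2. Members were the array features whose smaller coordinate falls in that interval and whose spot was well above background on at least 3 of the 4 arrays of a strain. This left 50 of the 27982 features tested on the array, and 35 of its 18399 gene names. The interval was picked because its features differ densely between BTBR and B6 mice. The strain difference of a member is therefore a description throughout, with no test of the interval, and nothing is supported by it.

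Hippocampal RNA of 4 BTBR and 4 B6 mice was hybridized to Agilent mouse arrays with 1 dye, each array with the RNA of 1 animal. The BTBR group carries the genotype BTBR T+ Itpr3tf/J, and the B6 group consists of wild type C57BL/6J mice. All 8 samples were whole hippocampus of males aged 5 months, without drug treatment. For the BTBR mice the labels also enter C57BL/6J in the background field. Their group was taken from the title and the genotype field. BTBR is an inbred strain studied as a model of autism, and B6 served as its control. Both are whole inbred strains, so the groups differ across the genome and not at 1 locus.

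Inbred mouse strains inherit long stretches of chromosome from different founders, and genes that sit side by side on such a stretch can differ between strains together. The interval carries genes of unrelated function. Among them are Napa, whose product αSNAP helps take apart spent SNARE complexes after vesicle fusion, the glutamine carrier Slc1a5, the kinase Prkd2, the calmodulin gene Calm3, the complement receptor C5ar2 and members of the carcinoembryonic antigen family. An Agilent feature is a spot of 1 DNA probe, 60 bases long, and reads the RNA that binds that stretch alone.

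The probes of the members with the widest differences, and of the genes whose probes part from each other, are printed so that each value below can be tied to the stretch of RNA it reads. All are given 5′ to 3′ from the array files, with mm9 positions. For Napa, on the plus strand, the 3 probes lie at chr7:16697934-16697993, chr7:16702113-16702172 and chr7:16703264-16703323, and capitals mark the hexamer AATAAA.
Napa A_52_P133172: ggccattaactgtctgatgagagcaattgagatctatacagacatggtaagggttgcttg
Napa A_52_P336033: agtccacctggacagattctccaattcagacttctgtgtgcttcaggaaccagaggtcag
Napa A_51_P246816: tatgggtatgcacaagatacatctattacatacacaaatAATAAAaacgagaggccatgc

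The letters AATAAA, the textbook polyadenylation signal, stood in the printed strand of 4 of the 50 member probes (8%), those of Sepw1, Napa, Grlf1 and Calm3. The share over all 27982 probes tested was 4.23%. On either strand the hexamer was in 5 member probes (10%), with 7.58% over the array. A match is a description of the letters and not of a used site.

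The single probes of Slc1a5 (chr7:17383359-17383418, plus strand), Prkd2 (chr7:17455468-17455527, plus), C5ar2 (chr7:16820101-16820160, minus) and Psg16 (chr7:17683714-17683774, plus) are shown because these genes carried the other wide differences or name the interval.
Slc1a5 A_51_P453475: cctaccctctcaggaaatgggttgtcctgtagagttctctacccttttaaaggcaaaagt
Prkd2 A_51_P499441: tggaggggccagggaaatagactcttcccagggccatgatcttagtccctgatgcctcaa
C5ar2 A_51_P169696: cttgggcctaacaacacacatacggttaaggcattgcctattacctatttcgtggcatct
Psg16 A_51_P153042: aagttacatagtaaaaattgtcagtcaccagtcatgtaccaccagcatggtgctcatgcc

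The Dhx34 and Sae1 probes, all on the minus strand, show the opposite cases of probes that gave like values and probes that did not. Capitals mark the 50 bases that 2 Dhx34 probes share, so those are not separate readings of the gene. The Dhx34 probes lie at chr7:16782650-16782709, chr7:16782660-16782719 and chr7:16784024-16784226, and those of Sae1 at chr7:16912920-16912979 and chr7:16952241-16953902. The wider spans are positions that the files give for probes split over the genome.
Dhx34 A_52_P213400: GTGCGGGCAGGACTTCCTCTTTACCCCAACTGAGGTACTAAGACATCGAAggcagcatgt
Dhx34 A_52_P213402: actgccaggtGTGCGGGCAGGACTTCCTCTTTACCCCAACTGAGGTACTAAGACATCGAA
Dhx34 A_51_P342813: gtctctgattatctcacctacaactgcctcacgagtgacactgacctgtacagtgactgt
Sae1 A_51_P308447: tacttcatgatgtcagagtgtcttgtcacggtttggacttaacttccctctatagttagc
Sae1 A_52_P5652: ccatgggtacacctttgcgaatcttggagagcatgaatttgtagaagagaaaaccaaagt

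The interval held 68 features with 51 gene names, and 18 features were left out as too dim. Among these were the probes of the oocyte homeobox genes Obox1, Obox3 and Obox5, of C5ar1 and of Ceacam15. The Crx probe measured 14.72 on B6 replicate 2, a spot with an outlier flag, and was not well above background on the other 7 arrays. Just outside the rule, a second Ppp5c probe (A_51_P307243) was well above background on 2 arrays of each strain, and the Ceacam9 probe on 2 BTBR arrays. Just inside it, the Crxos1 probe passed on 3 arrays of each strain. A probe each of Ehd2, Zc3h4 and Hif3a passed through the BTBR arrays alone, and 45 members were well above background on all 8 arrays. The members spread over 1200.9 kb, from Crxos1 to Psg16. From Sepw1 to Hif3a, RefSeq (GRCm38.p6, used for gene order only) lists 37 protein-coding genes, of which 28 had a member.

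Across the array, 57.4% to 72.3% of spots were well above background, lowest in B6 replicate 1, and no spot was saturated. Hippocampal markers were present, since 5 of 5 dentate granule and 5 of 5 CA pyramidal markers were tested. The mean log2 level of the neuron list stayed between 15.40 and 15.57 on all 8 arrays. Lists for neighboring tissue varied more. The thalamus list (4 of 4 markers tested) lay at 10.34 to 10.91 in B6 and at 10.71 to 13.53 in BTBR, highest in BTBR replicate 1. Its dimmest marker, Slitrk6, was at 8.56 to 9.22 in B6. The CA pyramidal list lay at 13.51 to 14.04 in B6, and in BTBR at 12.60 and 12.63 on replicates 1 and 2 and at 14.02 and 13.82 on replicates 3 and 4. With RNA of whole tissue, fewer cells of a type and less RNA per cell cannot be told apart.

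A feature was called when limma's adjusted p, over all features of the array, was under 0.05. Of the 50 members, 15 were called (30%), where the array as a whole had 7.61%. They split into 8 higher in BTBR (3.31% of the array was called in that direction) and 7 lower (4.3%). At an unadjusted p under 0.05 there were 27, with 18.5% of the array. The 4 arrays of a strain stood wholly above or below the other strain's in 21 members, 13 of them higher in BTBR, against 14.2% of the array. Because the interval was chosen on this contrast, nothing is read from these shares. With 1 array left out the count ran from 6 to 13 (5.48% to 7.80% of the array), and 5 members were called in all 8 of these fits, at probes of Gltscr2, Napa, C5ar2 and Slc1a5 and at the unnamed A_52_P980948. Of the other 10, the call stood in 7 of the 8 fits for Prkd2, 6 for Dhx34, 5 for Psg16, 3 each for Kptn and Ccdc9, 2 each for Strn4, Calm3 and Ppp5c, 1 for Sae1 and 0 for Grlf1. Under median centring of the arrays, in place of quantile normalization, the split was 4 higher and 7 lower (6.87% of the array called). With the scanner's processed signal it was 7 higher and 4 lower (7.29% of the array called).

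**Figure D1:**
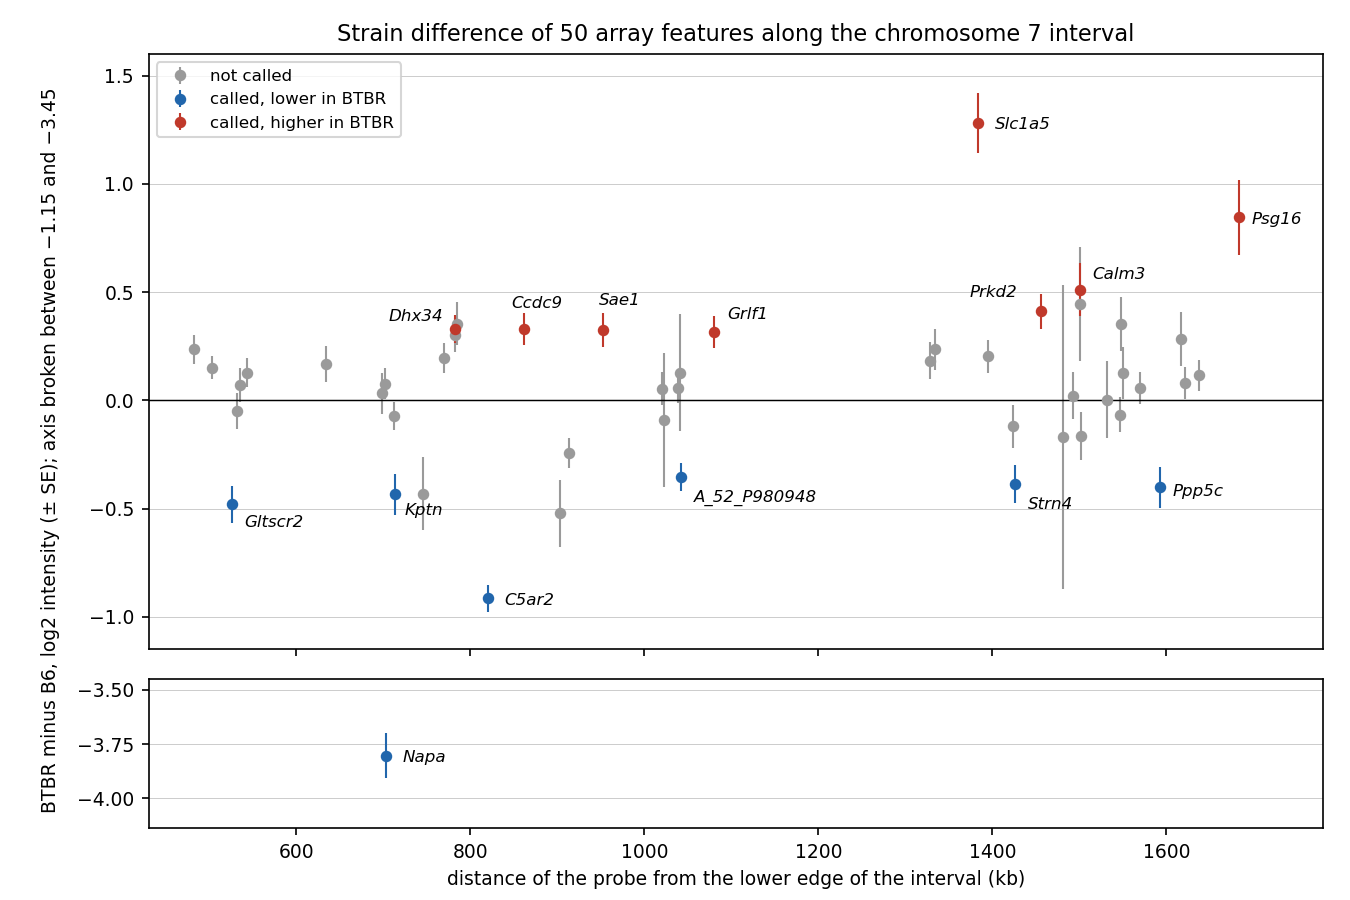
Difference between strains at each of the 50 members (vertical axis, BTBR minus B6 in log2 intensity, bars are the standard error, 4 arrays per strain) by distance from the lower edge of the interval in kb; the vertical axis is broken. Called features lie on both sides of 0 along the whole stretch, and 1 Napa probe stands at -3.80, far below the others.

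Differences of both signs alternated along the interval, and most were small. Over all members the median difference was 0.08 on the log2 scale (0.01 over the array), and the median size of the difference was 0.22 (0.10 over the array). A size of 1 or more was found at 2 members, a Napa probe and Slc1a5 (4%, with 1.65% over the array). The 35 uncalled members ran from -0.52 to 0.44, with 25 higher and 10 lower in BTBR, and in 6 of them the strains' arrays did not overlap. Among the 15 called, 4 had a size of at least 0.8 and 11 were under 0.6.

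Among genes of membrane traffic, Napa held the widest difference of the interval, and it was found at 1 of its 3 probes. Probe A_51_P246816 measured 12.34, 11.89, 11.91 and 12.14 (log2 intensity) in B6 replicates 1 to 4, and 8.19, 8.28, 8.31 and 8.29 in BTBR. Every BTBR array was thus more than 3 units under every B6 array, while still well above background. The difference was -3.80 (SE 0.10), or 14-fold lower in BTBR, and ran from -5.21 with the processed signal to -3.29 with the deposited matrix.

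The other 2 Napa probes showed nothing of that size. Probe A_52_P133172 measured 11.55, 11.65, 11.68 and 11.73 in B6 and 11.75, 11.60, 11.90 and 11.49 in BTBR, a difference of 0.03 (SE 0.10). Probe A_52_P336033 measured 15.05, 14.97, 15.00 and 15.05 in B6 and 15.26, 15.00, 15.12 and 15.01 in BTBR, a difference of 0.08 (SE 0.07). At both probes the strains overlapped. A_52_P133172 is annotated to another transcript record than A_52_P336033 and A_51_P246816. The BTBR genome sequence under the probes was not analysed here.

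Ap2s1, the small subunit of the AP-2 adaptor of clathrin-coated vesicles, was higher in BTBR by 0.18 (SE 0.09) and 0.24 (SE 0.10) at its 2 probes, neither called. Ehd2, which shapes membrane at caveolae, differed by 0.07 and 0.13, also uncalled, and by 0.14 and 0.76 with the processed signal.

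Among transporters, Slc1a5 (ASCT2, a carrier of glutamine and other neutral amino acids) had the widest difference toward BTBR. Its probe measured 9.58, 9.99, 9.75 and 9.46 in B6 and 11.01, 11.26, 10.78 and 10.86 in BTBR. The lowest BTBR array was above the highest B6 array. The difference was 1.28 (SE 0.14), or 2.43-fold higher in BTBR, and it stayed between 1.19 and 1.38 when any 1 array was left out. On slide 1, which held replicates 1 and 2 of both strains, it was 1.35, and on slide 2 it was 1.22.

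Slc8a2, the sodium-calcium exchanger NCX2, pointed the other way without being called. It measured 11.74, 11.29, 11.58 and 11.45 in B6 and 10.78, 10.82, 11.24 and 11.50 in BTBR, a difference of -0.43 (SE 0.17). BTBR replicates 1, 2 and 3 lay under all B6 arrays, and replicate 4 lay within the B6 range.

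Signaling genes differed by less. Prkd2, a serine/threonine kinase switched on by diacylglycerol, measured 9.92, 9.86, 10.12 and 10.04 in B6 and 10.25, 10.43, 10.39 and 10.50 in BTBR. The strains did not overlap, with 10.12 as the highest B6 and 10.25 as the lowest BTBR value. The difference was 0.41 (SE 0.08), or 1.33-fold, and the call was lost without B6 replicate 2, where it was 0.37.

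Calm3, 1 of the 3 genes that encode the same calmodulin protein, had 3 probes with unlike differences. A_52_P1157979 was called at 0.51 (SE 0.12), with 15.05 ± 0.15 (SD, n = 4) in B6 and 15.56 ± 0.23 in BTBR. A_52_P140356 differed by 0.44 with a wide error (SE 0.26), and A_51_P384499 by -0.16 (SE 0.11). The position that the files give for the called probe spans only 20 bases.

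Grlf1 (now Arhgap35, a GTPase-activating protein) was called at 0.32 (SE 0.07). Leaving out any 1 array ended that call, with differences from 0.26 to 0.34. Lower in BTBR were a probe of Strn4, a striatin that anchors the phosphatase PP2A, at -0.39 (SE 0.09), and Ppp5c, the phosphatase PP5, at -0.40 (SE 0.10). The second Strn4 probe differed by -0.12 (SE 0.10), uncalled.

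Gng8, a G protein γ subunit, was the member that varied most between mice. It measured 10.26, 10.17, 10 and 9.91 in B6 and 12.40, 9.55, 9.05 and 8.67 in BTBR. BTBR replicate 1 was above every B6 array, and the other 3 BTBR arrays were below every B6 array. The difference over all arrays was -0.17 (SE 0.70) and not called. Without BTBR replicate 1 it was -0.996 and called, the only call in 19 alternatives. Over the fits without 1 array it ran from -0.996 to 0.25, and with the processed signal it was -0.46. BTBR replicate 1 also had the highest level of the thalamus list, 13.53, with 10.71 to 11.27 on the other BTBR arrays. The part of this in the Gng8 values was not tested.

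C5ar2, the second receptor for the complement fragment C5a, measured 9.32, 9.36, 9.19 and 9.28 in B6 and 8.35, 8.44, 8.40 and 8.30 in BTBR. The strains were far apart and each was tight, with SDs of 0.07 and 0.06. The difference was -0.91 (SE 0.06), or 1.88-fold lower in BTBR. It reached -1.62 with the processed signal and was -0.67 with the deposited matrix. The microglia list (4 of 4 tested) lay at 11.96 to 12.16 in B6 and at 12.18 to 12.53 in BTBR, a shift carried by Cx3cr1, which was called at 1.41. The other 3 markers were at -0.05 (P2ry12), -0.01 (Csf1r) and -0.27 (Aif1), none called. The part of this in the C5ar2 values was not tested.

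Psg16, a pregnancy-specific glycoprotein of the carcinoembryonic antigen family, measured 8.99, 9.09, 8.90 and 8.94 in B6 and 10.38, 9.46, 9.66 and 9.80 in BTBR. All BTBR arrays were above all B6 arrays, and BTBR replicate 1 was the highest. The difference was 0.85 (SE 0.17). Without BTBR replicate 1 it was 0.66 and called. The call was lost without B6 replicate 1 (0.85), replicate 3 (0.82) or replicate 4 (0.83). Psg16 belongs to a family of closely related genes, and how far the probe separates them was not analysed here.

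**Figure D2:**
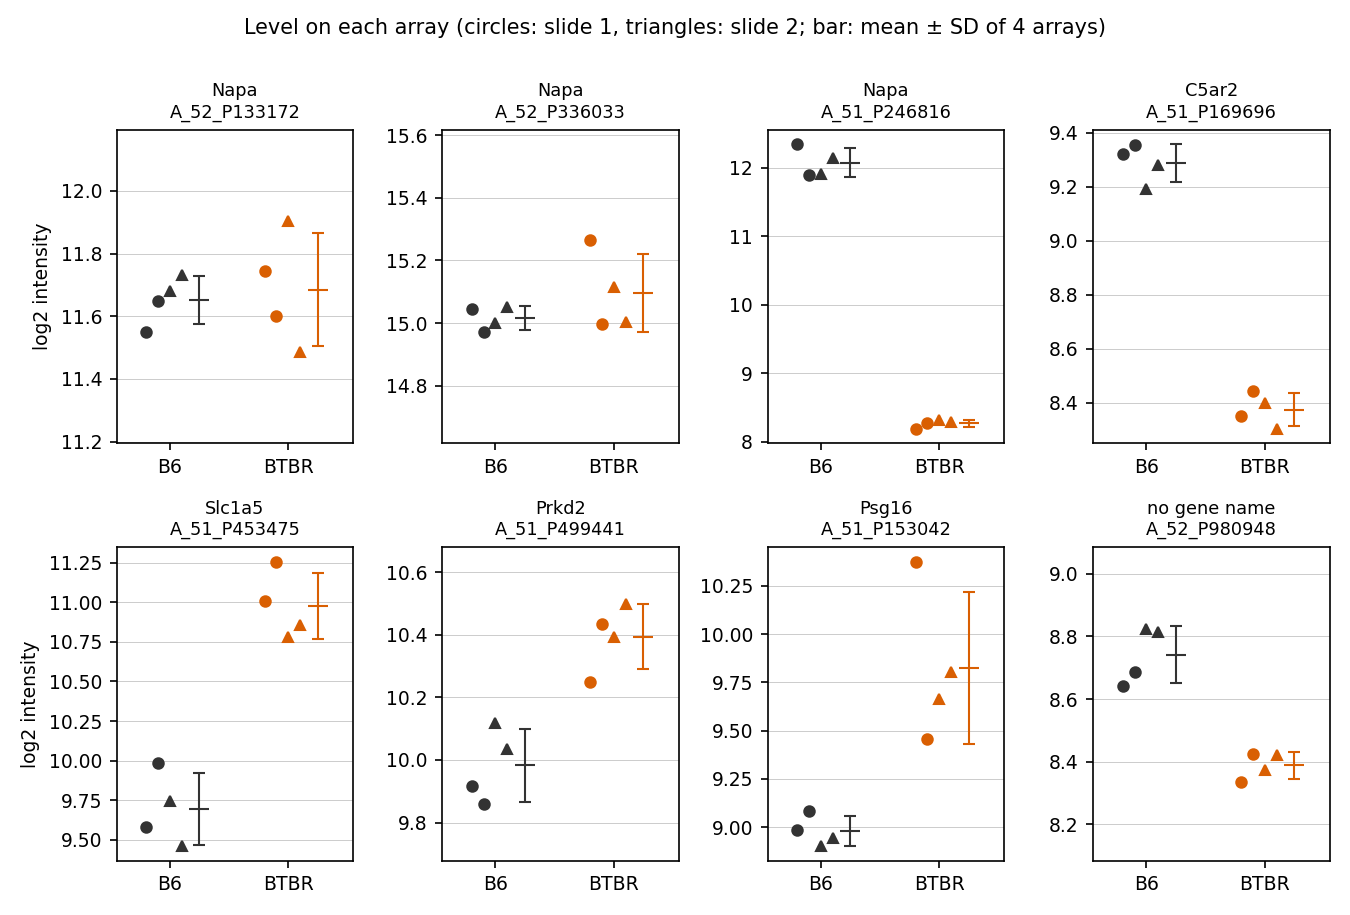
Level on each array (vertical axis, log2 intensity, own scale in each panel) for the 3 Napa probes, C5ar2, Slc1a5, Prkd2, Psg16 and the unnamed probe A_52_P980948; circles are slide 1, triangles slide 2, and the bar is the mean ± SD of 4 arrays. The strains separate fully in all panels but the first 2, which are the Napa probes with differences of 0.03 and 0.08.

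Genes of RNA and protein handling had probes with like and with unlike differences. Dhx34, a helicase of nonsense-mediated decay, was higher in BTBR at all 3 probes, by 0.33 (SE 0.07), 0.30 (SE 0.08) and 0.36 (SE 0.10). The strains' arrays did not overlap at any of the 3, and only the first was called. All 3 were called with the processed signal or with slide as a block. Since the first 2 probes share 50 bases, they read nearly the same stretch.

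Sae1, a subunit of the enzyme that activates SUMO, went in both directions, at probes annotated to different transcript records. Probe A_52_P5652 was called higher in BTBR at 0.33, with 11.17 ± 0.07 (SD, n = 4) in B6 and 11.49 ± 0.12 in BTBR. Probe A_51_P308447 was lower by 0.24, with 14.27 ± 0.06 in B6 and 14.02 ± 0.09 in BTBR, and was not called. The strains' arrays did not overlap at either probe. With the deposited matrix both probes were called, at 0.31 and -0.25, in opposite directions.

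Gltscr2 (now Nop53), a nucleolar protein of ribosome assembly, was called lower at -0.48 (SE 0.09) at A_51_P208580, while its second probe differed by -0.05 (SE 0.08). Kptn, a protein of the KICSTOR complex that restrains mTORC1, was called lower at -0.43 (SE 0.10) at 1 probe, and its second differed by -0.07 (SE 0.07). Ccdc9 was called higher at 0.33 (SE 0.07). Zc3h4, a zinc finger protein, differed by 0.05 and -0.09, neither called. The first was 0.48 with the processed signal, and the second was lowest on BTBR replicate 3.

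**Figure D3:**
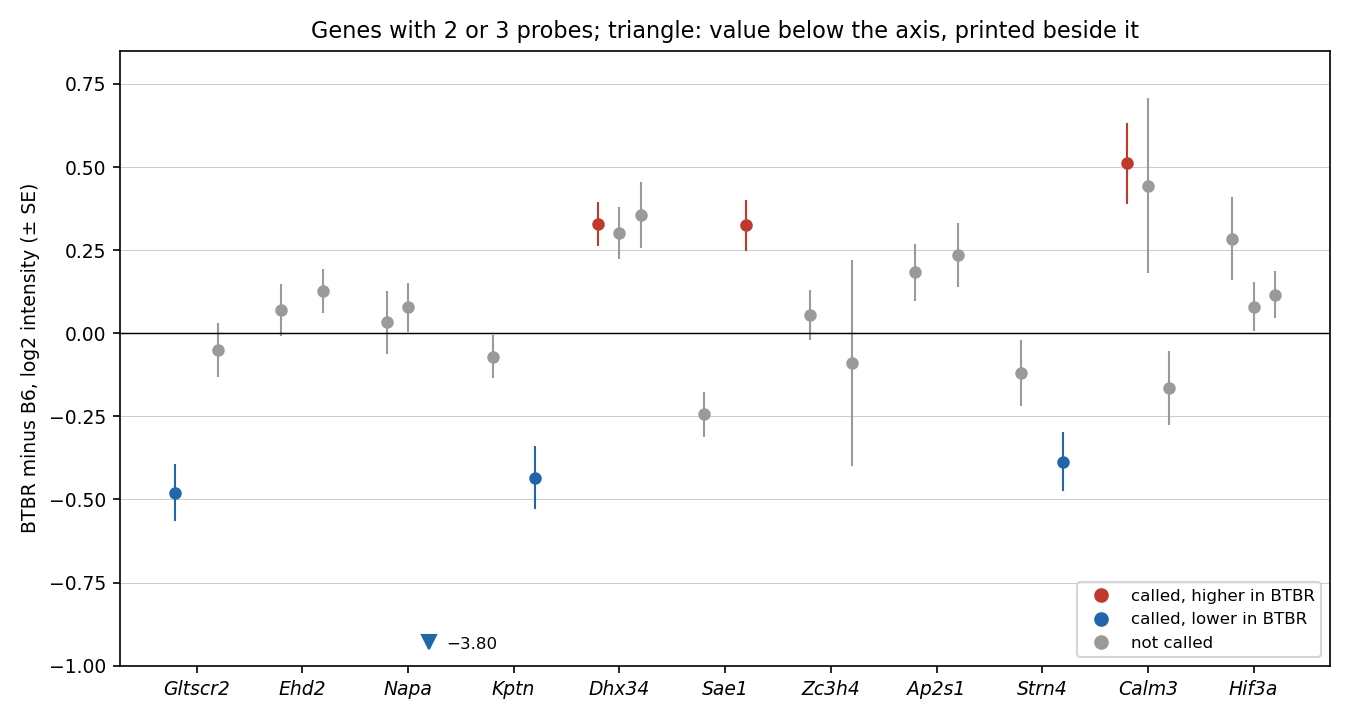
Difference between strains (vertical axis, BTBR minus B6, log2 intensity ± SE, 4 arrays per strain) for each probe of the 11 gene names with 2 or 3 members, in order of position; color marks the call. Dhx34 probes lie together, while those of Napa, Sae1 and Calm3 lie apart.

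Of 11 gene names with more than 1 member, 7 had a call, 0 had all probes called and 0 had calls in opposite directions. Names are those of the array files, so 4930488B01Rik, a RefSeq synonym of Pnmal1, counts apart from the Pnmal1 probe. These differed by 0.13 and -0.07, neither called. Sae1 had opposite calls with the deposited matrix, and Dhx34 had all 3 probes called with the processed signal or slide as a block. The probes differed in sign in 4 of the 11. When a gene was instead represented by the median over its probes, 9 genes were called, where 15 had a call at their best probe. Of those 15, 8 had a single member, so no second probe was there to compare. The same shares over the array's 18399 gene names are not reported here, and nothing is read from these gene counts.

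The transcription factors Npas1, Meis3 and Hif3a were not called. Npas1, a factor of inhibitory neurons, differed by 0.13 (SE 0.27), with 13.06, 12.81, 12.84 and 13.16 in B6 and 12.50, 12.63, 13.59 and 13.67 in BTBR. BTBR replicates 1 and 2 were under all B6 arrays and replicates 3 and 4 were over them. Several marker lists divided the BTBR arrays in the same way. The CA pyramidal list, given above, and the dentate granule list (10.93 and 10.25, then 11.40 and 11.77) were lower on replicates 1 and 2 than on 3 and 4. The choroid plexus list (13.80 and 13.67, then 11.65 and 11.77) and the oligodendrocyte list (15.46 and 15.66, then 15.03 and 14.74) were higher on them. Their part in the Npas1 values was not tested. Meis3, a homeobox gene, differed by 0.19 (SE 0.07) without overlap of the strains. Hif3a, a member of the hypoxia-inducible factors, differed by 0.28 (SE 0.12), 0.08 and 0.12 at 3 probes. Crxos1, at the lower end, was higher by 0.24 (SE 0.07) without overlap. With the processed signal the first Hif3a probe differed by 0.71, the third by 0.42 and Crxos1 by 0.73. With the deposited matrix they differed by 0.19, 0.07 and 0.14, and none was called under either setting.

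The brightest of the remaining genes showed small differences, none called. Sepw1, selenoprotein W, measured 17.36 ± 0.04 (SD, n = 4) in B6 and 17.52 ± 0.03 in BTBR, without overlap. The differences were 0.13 (SE 0.12) for 4930488B01Rik, a RefSeq synonym of Pnmal1, and 0.06 (SE 0.07) for Tmem160. Bbc3, the cell death gene Puma, was chosen after its values were seen as the widest uncalled difference. It measured 12.10, 11.79, 11.86 and 11.83 in B6 and 11.30, 11.02, 11.37 and 11.81 in BTBR, a difference of -0.52 (SE 0.15), and was called without BTBR replicate 4, at -0.67.

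The last called member has no gene name in the files. Probe A_52_P980948 (chr7:17042327-17042386, plus strand) lies near the Npas1 probe, on the opposite strand. It measured 8.64, 8.69, 8.82 and 8.81 in B6 and 8.33, 8.42, 8.37 and 8.42 in BTBR, without overlap, a difference of -0.35 (SE 0.07). It was -0.72 with the processed signal and -0.24 with the deposited matrix, called in both.

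**Figure D4:**
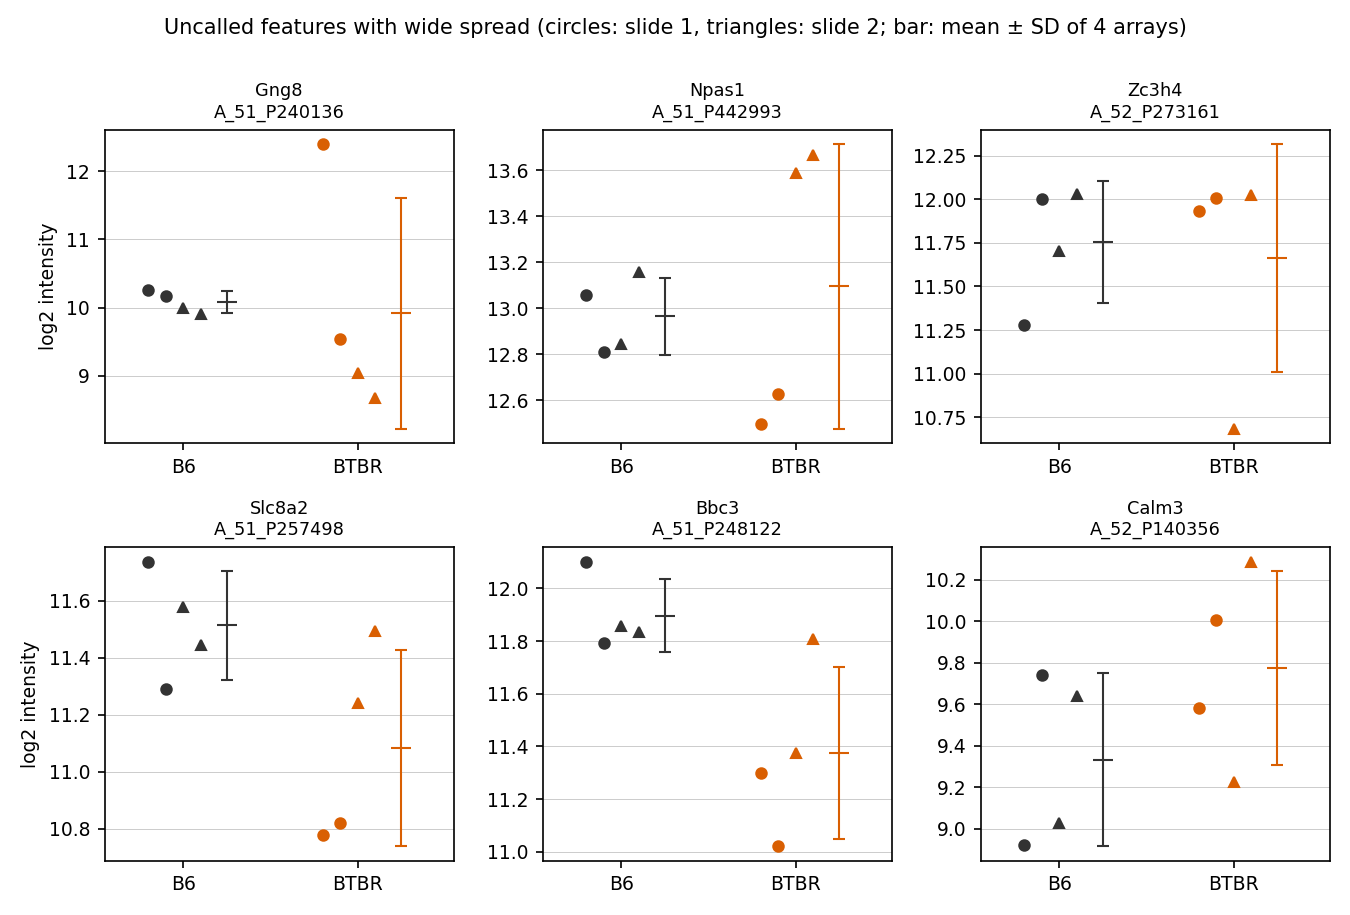
Level on each array (vertical axis, log2 intensity, own scale in each panel) for 6 uncalled members with wide spread; circles are slide 1, triangles slide 2, and the bar is the mean ± SD of 4 arrays. Gng8 has BTBR replicate 1 at 12.40 above all others, Npas1 splits the BTBR arrays by slide, and Zc3h4 has BTBR replicate 3 at 10.68 below all others.

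Each slide held 2 arrays of each strain. The differences on the slides are parts of the difference on which the interval was chosen, so their agreement in sign or size supports nothing. All 15 called members had the same sign on both, as did 41 of the 50 members. A change of the strain difference between slides was called by limma at 0 members (3 at an unadjusted p under 0.05, in Slc8a2, Npas1 and Hif3a) and at 0 features of the array (2780 unadjusted, smallest adjusted p = 0.33). Npas1 differed by -0.37 on slide 1 and 0.63 on slide 2.

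**Figure D5:**
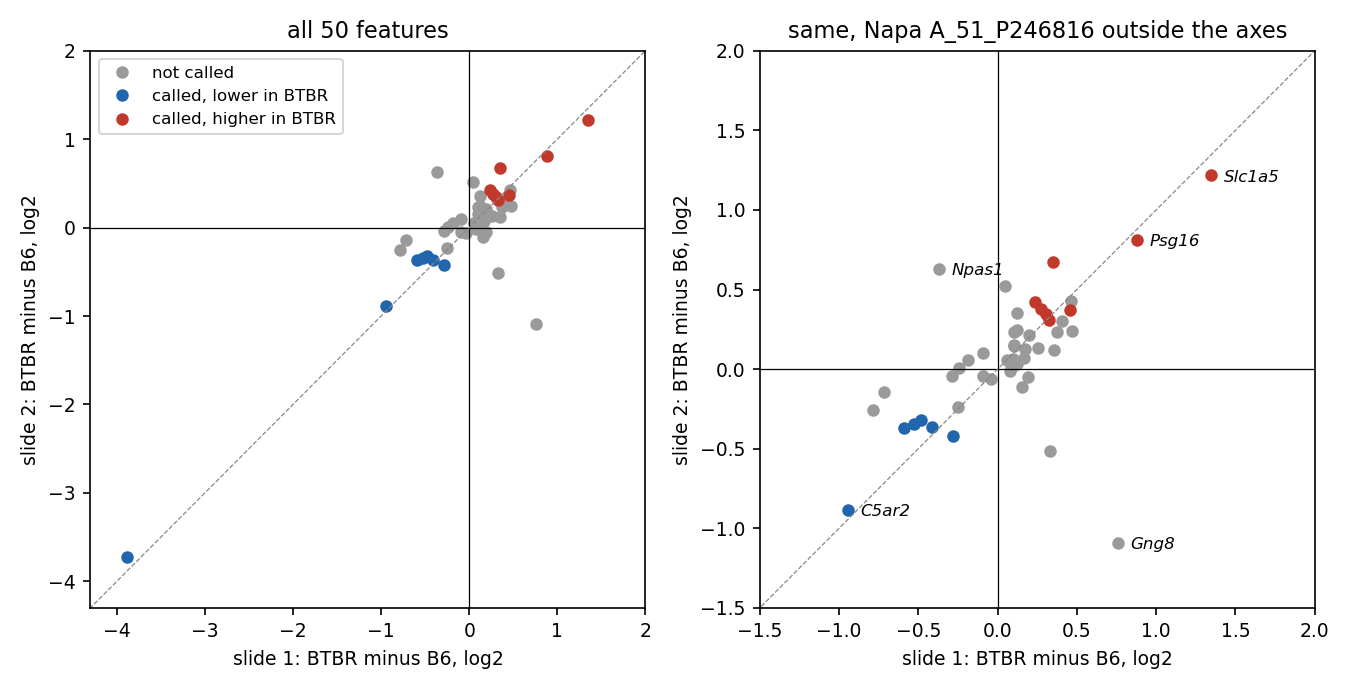
Difference between strains on slide 2 (vertical axis) against slide 1 (horizontal axis), both BTBR minus B6 in log2 intensity, 1 point per member, with 2 arrays per strain on each slide; the dashed line marks equal values and the right panel enlarges the center. Called members lie near the line, and Gng8 and Npas1 lie far from it.

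Within strains, the median SD of the members was 0.12, and 0.13 over all features of the array. The members' median SD was 0.08 in B6 and 0.13 in BTBR, and over the array it was 0.11 and 0.14. Called members lay on both strands, 7 of 27 on the plus and 8 of 23 on the minus strand. The median GC content of the probes was 50% for called and for other members alike.

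The edges of the interval are round coordinates set by the rule. Below it, the nearest tested feature was Nlrp5-ps at chr7:15166426-15168372, at -0.18 and uncalled, and it was the only 1 between 14 and 16 Mb. Above it, the nearest was Psg17 at chr7:19400015-19402158, at 0.06 and uncalled. From 18 to 20 Mb, 9 of 36 features were called (25%), 3 higher and 6 lower, and the rest of the chromosome had 9.95% of 1979. The interval was not tested against either.

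Genes elsewhere in the genome that work with the members were read from lists of families and complexes. Of 44 such genes 42 were tested, with 97 features, and 3 features rose and 3 fell in BTBR by limma's adjusted p. That is 6 of 97, with 7.61% called over the array. The partners of Napa in SNARE assembly and disassembly (Napb, Napg, Nsf and 5 neuronal SNARE genes) had 0 of 15 features called, and their differences ran from -0.19 to 0.26.

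In the list of Slc1a5, the glutamine carrier Slc38a1 rose by 1.07 (SE 0.09) at 1 of its 5 probes, and the other 4 differed by 0.07 to 0.32, uncalled. That call stood in all 8 fits without 1 array. Prkd3, the kin of Prkd2, rose by 0.43 (SE 0.11) at 1 of its 3 probes, and the other 2 differed by 0.08 and -0.13, uncalled. Its call stood in 2 of the 8 such fits, where the difference ran from 0.33 to 0.50.

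Arnt, the common partner of hypoxia-inducible factors, fell by 0.51 (SE 0.07) at 1 of its 3 probes, while the other 2 differed by 0.04 and 0.00071, uncalled. The call stood in all 8 fits without 1 array. The AP-2, sodium-calcium exchanger, striatin and C5 lists had 0 called of 10, 7, 4 and 1 features.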

How the data were processed

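Hippocampal RNA of 4 BTBR and 4 B6 mice was measured on Agilent 4X44K arrays. Spot intensity was taken as the authors deposited it, scanned with Agilent Feature Extraction, whose version in the headers is 10.7.3.1, and not scaled between arrays. The authors' log2 matrix, which their methods describe as Agi4x44PreProcess defaults followed by quantile normalization, with the median taken over replicate spots, served as an alternative.

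Following those methods, each spot's mean intensity less its median local background was floored at 0.5, raised by an offset of 50, turned to log2 and quantile normalized. Controls, 154 probes flagged as outliers, and probes that no strain had well above background on at least 3 of 4 arrays were dropped, which left 27982. Limma 3.58.1 (R 4.3.3) fitted strain alone, with Benjamini-Hochberg adjustment over all of them, and the step was tested on simulated data. The rank product that the methods name takes its chance level from permuting probes and was not run. Python 3.11.15 and pandas 2.3.3 made the summaries. A single value of 4 arrays against 4 allows an exact p of 0.0286 at the lowest. The number of arrays limits the precision.

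Probe positions are mm9, and 31 of 35 gene names matched RefSeq, 5 of them under another current symbol. Named were Napa, Slc1a5 and Prkd2, every gene with a called probe, every gene whose probes differ in call, and the 5 brightest others. A few genes that the rule or the lists take are not reported here. Slc8a2, Gng8, Npas1, Zc3h4, Bbc3, Meis3, Hif3a, Ehd2, Crxos1 and Pnmal1 were added once their values had been looked at. The interval, the members and the gene lists were chosen with earlier results of these data known. The replicate numbers of the labels name mice and are not said to pair them. Nothing says how the mice were related, so p-values measure the spread between these mice. Alternatives changed the background correction, normalization, offset, filters, moderation, blocks and threshold, and left out each array in turn.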

Additional observations from a re-analysis of the deposited data

Results flagged for a closer look

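Of the 100 groups of 4 arrays (50 members in 2 strains), 4 had 1 array far from the other 3, where the rule marks about 5% of groups by chance. In BTBR, Zc3h4 (A_52_P273161) measured 10.684 on replicate 3 and 11.934 to 12.025 on the others, and Grlf1 measured 15.021 on replicate 3 and 14.805 to 14.811 on the others. Ppp5c (A_52_P323669) measured 11.598 on BTBR replicate 2 and 11.961 to 12.011 on the others. In B6, Ap2s1 (A_52_P128095) measured 15.308 on replicate 4 and 15.167 to 15.188 on the others. Among these, Grlf1 and Ppp5c are called members. Without BTBR replicate 3 the Grlf1 difference was 0.26, and it was not called. Without BTBR replicate 2 the Ppp5c difference was -0.31, and it was called.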

How the results depend on the processing

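The count of members called was 15, with 7.61% of the array. It was 11 with the processed signal, 9 of them among the 15, and 11 with median centring, all of them among the 15. It was 16 with normexp background correction (7.62% of the array), and 18 with the deposited matrix (7.68%) or slide as a block (8.33%). An offset of 1 (7.49%), no filter on dim probes (4.88%) and only probes bright on all 8 arrays (7.35%) each gave 15. So did outlier flags kept (7.53%) and limma's trend and robust options (7.49%). At an adjusted p under 0.01 there were 4 (8%), with 4.27% of the array. Leaving out 1 array gave 6 to 13 (5.48% to 7.80% of the array). The counts were 7, 7, 6 and 7 with B6 replicates 1 to 4 left out in turn. For BTBR replicates 1 to 4 they were 12, 13, 13 and 10, and the cause was not tested. By the median over probes 9 genes were called, where 15 had a called probe, and the shares over all gene names are not reported here. The median difference of 0.08 was 0.15 with the processed signal, and the cause was not tested. No called difference changed sign under any of these settings, and 6 partner features were also called with limma's trend and robust options, with a Slc1a3 probe in place of the Prkd3 probe. Signal near background limits the dimmest members, of which 5 were not well above background on all 8 arrays. Among called members, 3 had a BTBR mean under 9, namely Napa A_51_P246816 (8.27), C5ar2 (8.37) and A_52_P980948 (8.39). The lowest value of a probe well above background reached 8.15 on an array. The sizes of these 3 differences changed between processing settings, as given above.

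The labels do not say whether replicate numbers pair the mice. Deviations of same-numbered mice, which share a slide, correlated at -0.14, 0.51, -0.10 and 0.39 for numbers 1 to 4. For numbers 2 and 4 each mouse was the other's closest match, and for 1 and 3 it was not. These correlations cannot decide whether the numbers pair mice. With the replicate number as a block 9 members were called (5.90% of the array), 8 of them among the 15.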
